A study of Mus musculus with 9 samples.

Results

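The 32 genes described here are ER chaperones, ER folding enzymes, sensors and transcription factors of the unfolded protein response, targets of ATF4 and CHOP, and components of ER-associated degradation (ERAD). They were chosen by name, and each was represented by its brightest probe set with 1 gene symbol. All 32 were measured, among 12393 genes in all, and no filter on low signal was applied. By role they were 8 chaperones and co-chaperones, 2 lectin chaperones, 5 disulfide isomerases or related factors, 3 sensors, 3 transcription factors, 4 ATF4 and CHOP outputs, 6 ERAD factors and 1 translocon subunit.

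Proteins that enter the ER are folded by chaperones such as BiP (encoded by Hspa5), by the lectins calnexin and calreticulin, and by disulfide isomerases. When unfolded protein accumulates, IRE1 (Ern1), PERK (Eif2ak3) and ATF6 signal to the nucleus: IRE1 splices the Xbp1 mRNA, PERK lowers translation and raises ATF4 and CHOP (Ddit3), and ATF6 is cleaved to a transcription factor. In haematopoietic stem cells, which make protein slowly, this response is known for its part in the choice between survival and death under stress. ATF4 is also made when amino acids are short, through a kinase other than PERK, so its targets are not specific to ER stress. Splicing of Xbp1 and cleavage of ATF6 are not read by mRNA level on an array.

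KSL cells are the fraction of mouse bone marrow positive for c-Kit and Sca-1 and negative for lineage markers and IL7Ra, which holds stem cells and early progenitors. They were profiled on 9 arrays from C57BL/6 mice. Control mice were Runx1 floxed/floxed, MxCre-/-, and Runx1KO mice were Runx1 floxed/floxed, MxCre+/-; both were sampled 3 months after poly IC, which induces the interferon-responsive Mx-Cre in blood cells and in other tissues. RUNX1(41-214) mice received cells transduced with a retroviral vector for the fragment of RUNX1 from residue 41 to residue 214 and were sampled 4 months after transduction and transplantation. Each group had 3 biological replicates, and nothing in the labels says whether a replicate was 1 animal or a pool. The labels of the RUNX1(41-214) group name no poly IC and no floxed allele, and no array of cells transplanted with an empty vector was among the 9, so the fragment cannot be told apart from transplantation, transduction or the absence of poly IC in its comparisons.

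Median deposited signals of the 9 arrays lay between 125 and 147, and arrays correlated at 0.976 to 0.992 within groups and at 0.968 to 0.986 between groups. The Gapdh 3' to 5' log2 ratio, a sign of RNA or cRNA quality, was 2.13 on Runx1KO replicate 3 and 1.85 on Control replicate 2, the highest values, with the remaining arrays at 0.98 to 1.29. Of 8 markers of KSL cells, c-Kit itself (Kit) and genes of stem and progenitor cells outside the gate among them, 6 were measured and 0 of these were below the median gene. In RUNX1(41-214) against control 1 of the 6 rose (Kit, 0.57, adjusted p = 0.0415), 1 fell (Procr, -0.87, adjusted p = 0.00992) and 4 had an unadjusted p under 0.05, and Procr was also lower than in Runx1KO (-0.92, adjusted p = 0.0168). The brightest Runx1 probe set was not lower in Runx1KO (log2 fold change 1.05, adjusted p = 0.074), and since the probed part of the transcript relative to the deleted one is not given in the sources used here, it does not check the deletion. Markers of other cells differed between groups: summed signals of 8 measured B cell markers were 5836.8 to 6391 in control, 4386.4 to 8966.3 in Runx1KO and 1432.7 to 1765.3 in RUNX1(41-214), and those of 9 measured megakaryocyte and platelet markers were 3883.8 to 5270.8, 7206.6 to 8735.4 and 11987 to 14686.9. Bright genes dominate such sums: of the 8 B cell markers 4 lay above and 4 below control in RUNX1(41-214), and the 2 that fell were Ighm (-2.91) and Vpreb1 (-1.54, adjusted p = 0.0495). With the mean of its probe sets Ighm differed by -0.52 (adjusted p = 0.324). Of the 9 megakaryocyte and platelet markers 8 lay above control in RUNX1(41-214) and 4 rose. In RNA from many cells, fewer cells of a type and less RNA per cell cannot be told apart.

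Promoter sequence gives the known wiring of this gene set and is shown for members whose values are described below. RefSeq promoter windows (GRCm38.p6) of 300 bases, from 250 before to 50 after the annotated start, were found for 28 of the 32 genes. The ER stress response element (ERSE), to which NF-Y, ATF6 and XBP1 are known to bind, was searched on both strands as CCAAT, 9 bases of any kind and CCACG, and ERSE-II as ATTGG, 1 base and CCACG. In the lines below, 5' to 3' on the strand of the gene, capitals mark the matched element with the bases between its boxes.
Hspa5, BiP, chr2:34772010-34772058, plus strand: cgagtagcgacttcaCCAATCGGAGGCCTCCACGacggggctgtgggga
Hsp90b1, GRP94, chr10:86705518-86705671, minus strand: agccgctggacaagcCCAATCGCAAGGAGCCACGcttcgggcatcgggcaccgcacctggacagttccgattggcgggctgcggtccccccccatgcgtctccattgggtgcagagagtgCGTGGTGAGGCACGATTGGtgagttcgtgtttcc
Calr, calreticulin, chr8:84847060-84847108, minus strand: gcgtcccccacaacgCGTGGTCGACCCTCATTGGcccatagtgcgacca
Canx, calnexin, chr11:50325785-50325833, minus strand: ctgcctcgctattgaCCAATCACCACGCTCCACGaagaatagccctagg
Syvn1, HRD1, chr19:6046517-6046565, plus strand: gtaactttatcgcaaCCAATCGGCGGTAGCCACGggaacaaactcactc
Hspa5 carried its match 65 to 47 bases before the start and Syvn1 44 to 26 bases before it, while Hsp90b1 had 2 matches, the nearer one on the opposite strand.

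ERSE was present in 8 member genes (Hspa5, Hsp90b1, Dnajc3, Calr, Canx, Pdia6, Creld2 and Syvn1), against 39 of all 32851 promoters (0.119%). ERSE-II was present in Dnajb11 and Herpud1, against 0.0365% of all promoters. The boxes of ERSE alone were common: CCAAT was present in 22 member genes and 37.4% of all promoters, and CCACG in 22 member genes and 32.8% of all promoters. The XBP1-bound UPRE (TGACGTGG) and a C/EBP-ATF composite site (ATTGCATCA) had 0 matches in member windows, against 0.676% and 0.192% of all. A looser C/EBP-ATF core, TGATG, 1 base and AA, which every composite match also holds, was added after the values had been seen, because Asns and Trib3 stood apart in the arrays. It was present in Trib3, Asns, Chac1 and Herpud1, against 3.97% of all promoters; capitals mark it below, and in Herpud1 also the ERSE-II.
Asns, asparagine synthetase, chr6:7693210-7693247, minus strand: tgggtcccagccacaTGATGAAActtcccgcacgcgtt
Trib3, chr2:152344028-152344057, minus strand, just after the start: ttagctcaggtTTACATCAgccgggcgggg
Chac1, chr2:119351034-119351071, plus strand: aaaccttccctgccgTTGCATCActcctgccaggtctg
Herpud1, chr8:94386302-94386402, plus strand: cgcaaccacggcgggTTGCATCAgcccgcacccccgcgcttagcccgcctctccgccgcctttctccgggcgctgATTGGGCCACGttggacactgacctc
The match of Asns lay 23 to 16 bases before its start and that of Trib3 14 to 21 bases after it. A match in these windows is a description of the letters and not of a bound site.

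**Figure D1:**
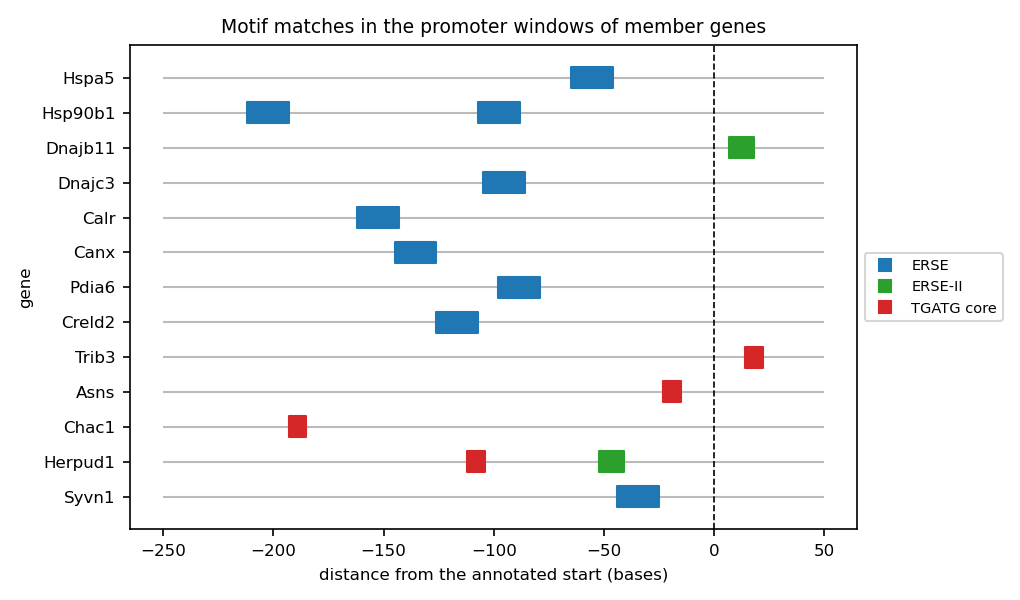
Positions of exact motif matches in the promoter windows of the 13 member genes with a match; the x axis is the distance from the annotated start in bases, each row is a gene, and blocks are ERSE (blue), ERSE-II (green) and the TGATG core (red). ERSE blocks all lie before the start, Hsp90b1 has 2 of them, and Herpud1 is the row with both ERSE-II and the TGATG core.

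Most of the gene set showed small differences between the 3 groups. In limma's moderated test, adjusted by Benjamini-Hochberg over 12393 genes with a threshold of 0.05, 0 of 32 members differed between Runx1KO and control, where 0.347% of all genes did (43 genes). Between RUNX1(41-214) and control 1 member passed, Asns, which fell, against 4.28% of all genes (531 genes) and 2.56% that fell. Between RUNX1(41-214) and Runx1KO 1 member passed, Trib3, which was lower with the fragment, against 1.36% of all genes (168 genes) and 1.06% that were lower. A moderated F test over the 3 groups picked Asns (adjusted p = 0.00613) and Trib3 (adjusted p = 0.0311), or 2 of 32, beside 3.4% of all genes. With 32 genes, counts of 0, 1 and 1 do not set the members apart from these background shares.

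At an unadjusted p under 0.05, 3 of 32 members passed for Runx1KO against control (7.22% of all genes), 4 for RUNX1(41-214) against control (15.5%) and 4 for RUNX1(41-214) against Runx1KO (10.6%). The 3 arrays of a group lay wholly above or below the other 3 for 3 members in the first of these comparisons (10.5% of all genes), for 6 in the second (20.3%) and for 6 in the third (18.8%). The log2 fold change was under 0.5 in size for 30, 27 and 28 members, and for 93.1%, 86.1% and 89.9% of all genes. Member medians were 0.03, 0.00 and 0.01, beside -0.00, 0.02 and 0.02 over all genes, and the median spread within groups was 0.24 log2 units for the members and for all genes alike. Both comparisons with control used the same 3 control arrays, so their values are given side by side and are not independent.

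**Figure D2:**
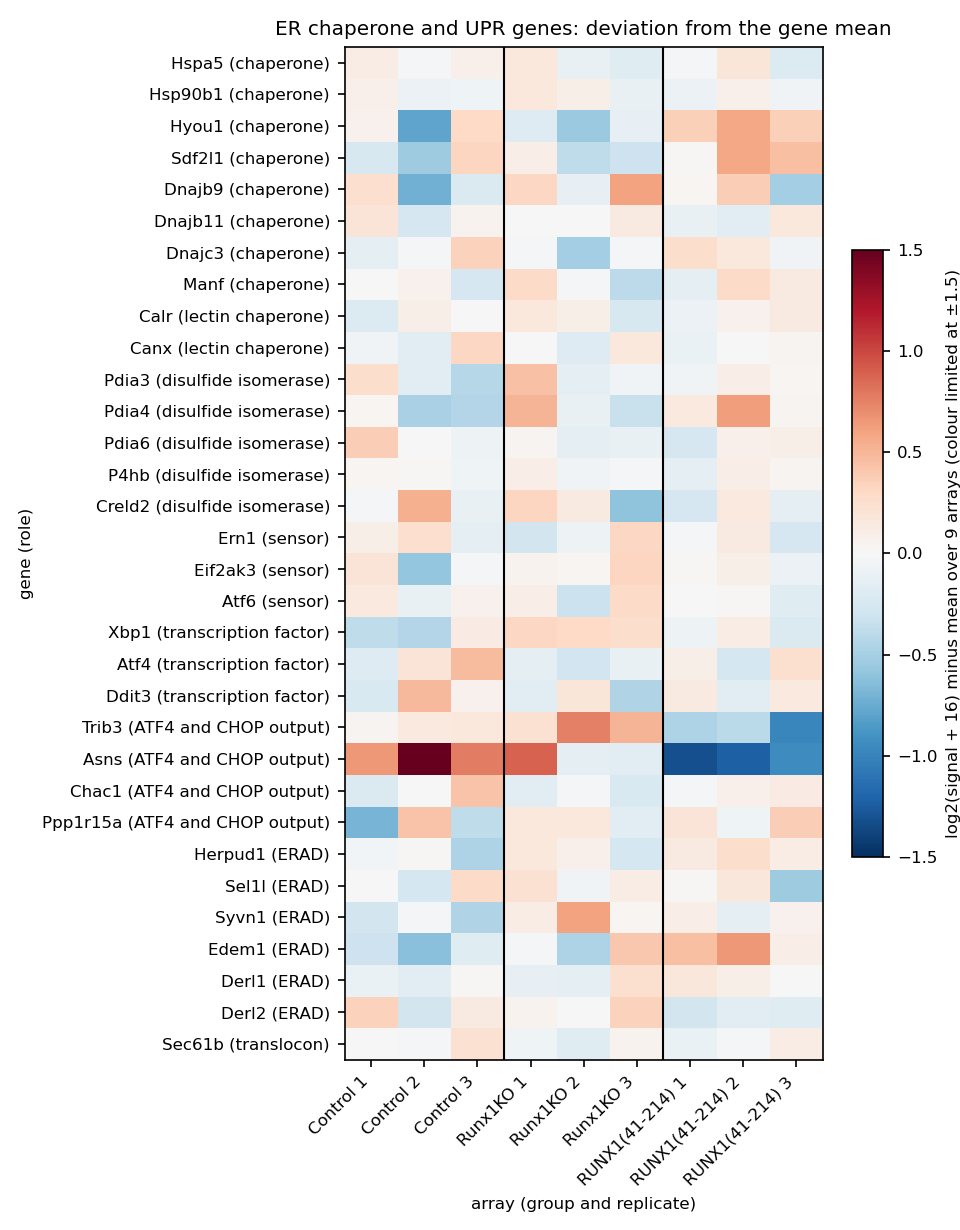
Heat map of the 32 genes (rows, with role) on the 9 arrays (columns, in groups of 3); colour is log2(signal + 16) minus the gene's mean over the 9 arrays, from blue (lower) to red (higher), limited at 1.5. The Asns and Trib3 rows are blue on the 3 RUNX1(41-214) arrays, Asns is darkest red on Control replicate 2, and most other rows are pale.

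**Figure D3:**
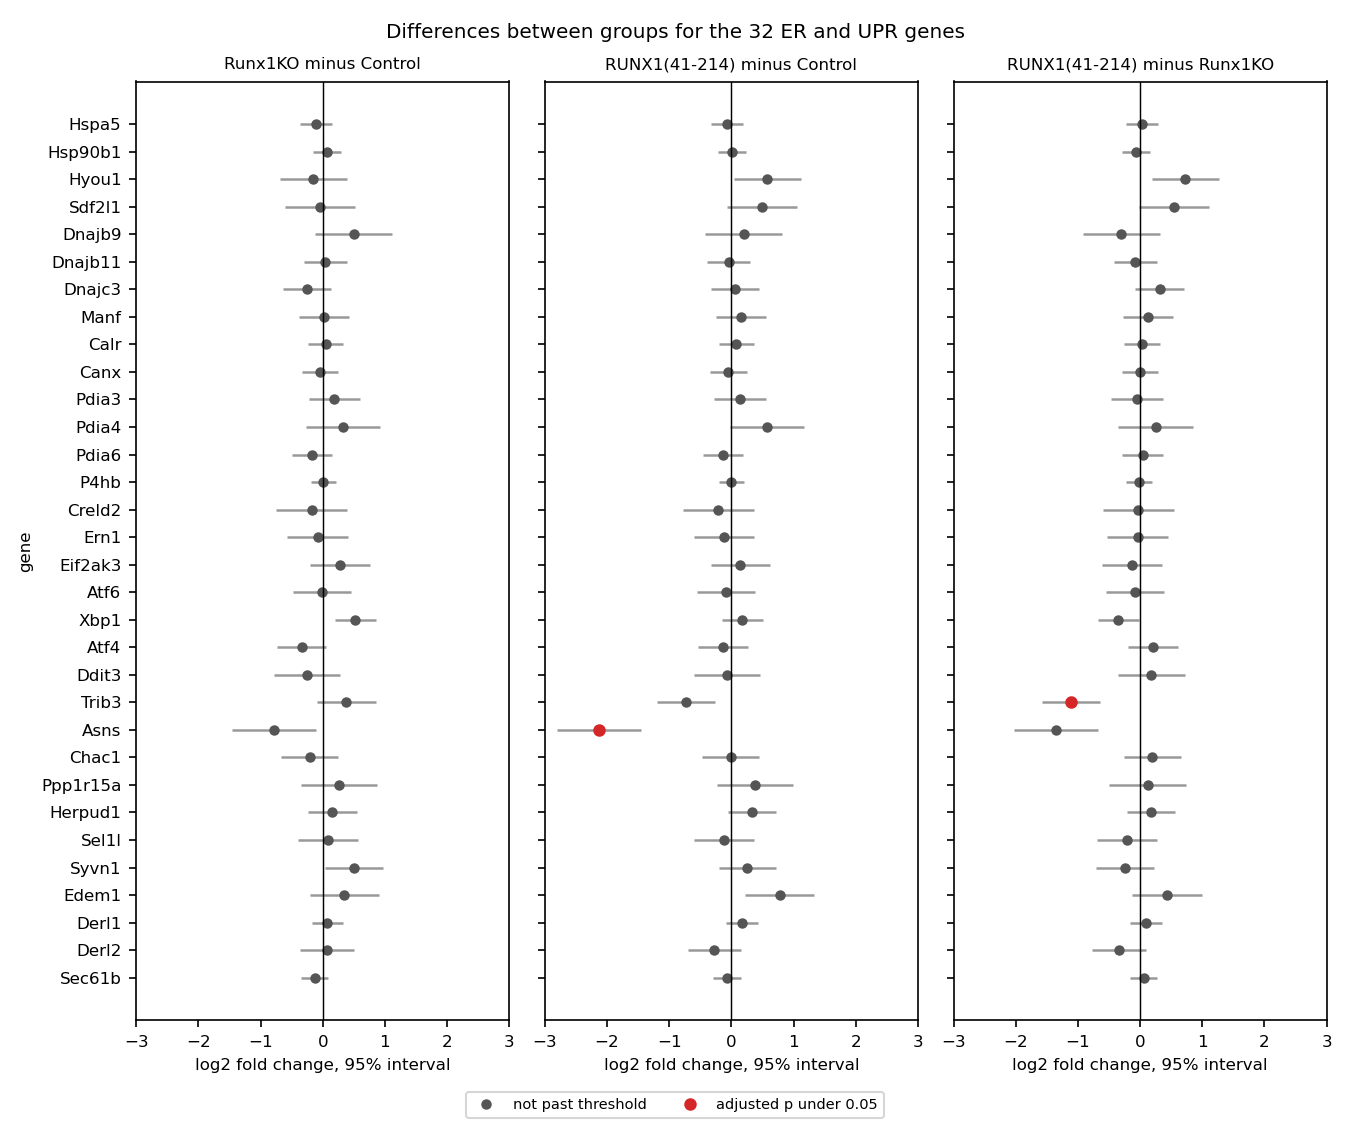
Log2 fold change (points) with its 95% interval (lines) for each of the 32 genes in the 3 comparisons; red points passed an adjusted p of 0.05. Asns in RUNX1(41-214) minus Control and Trib3 in RUNX1(41-214) minus Runx1KO are the 2 red points, and the intervals of Hspa5, Hsp90b1, P4hb and Sec61b are among the narrowest.

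Values below are log2(signal + 16) after quantile normalization, and fold changes on this scale understate those of dim genes. Levels are compared between groups within a gene and not between genes. BiP, the main ER chaperone and the regulator that holds the sensors inactive, differed little: Hspa5 read 12.14, 12.01 and 12.10 in control, 12.18, 11.91 and 11.84 in Runx1KO, and 12.0, 12.20 and 11.82 in RUNX1(41-214). The arrays of the 3 groups overlapped. Hspa5 was -0.11 from control in Runx1KO (95% interval -0.37 to 0.15) and -0.07 in RUNX1(41-214) (-0.34 to 0.19), so that a doubling lies outside both intervals. Its other probe set gave -0.25 and -0.08.

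GRP94, the ER member of the HSP90 family, was as level on its brightest probe set. Hsp90b1 read 11.87, 11.70 and 11.73 in control, 11.95, 11.88 and 11.69 in Runx1KO, and 11.70, 11.87 and 11.75 with the fragment. The groups overlapped, with differences from control of 0.07 (-0.15 to 0.30) and 0.01 (-0.22 to 0.23). The other Hsp90b1 probe set was more variable, with fragment arrays from 9.23 to 11.03, and gave -0.56 and -0.66 (SE 0.47). Among the co-chaperones of BiP, Dnajb11 differed from control by 0.04 and -0.04 and Dnajc3 by -0.26 and 0.06. The other Dnajc3 probe sets gave -0.29 to 0.01 and -0.51 to 0.47. Dnajb9, which acts on BiP at IRE1, was among the most variable members, with arrays from 9.62 to 10.59 in control, and its differences of 0.50 and 0.20 had intervals that held 0. Manf, a secreted ER stress factor that binds BiP, differed by 0.02 and 0.15.

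Hyou1, an HSP70-like chaperone and exchange factor of BiP, was the chaperone that stood furthest from control in the RUNX1(41-214) group. It read 10.53, 9.68 and 10.78 in control, 10.28, 9.91 and 10.35 in Runx1KO, and 10.83, 11.06 and 10.83 in RUNX1(41-214). The 3 fragment arrays lay above all others, and Control replicate 2, an array of high Gapdh ratio, was the lowest. The difference was 0.57 from control (0.04 to 1.11, adjusted p = 0.281) and 0.73 from Runx1KO (0.19 to 1.26, adjusted p = 0.265), neither past the threshold. Without Control replicate 2, which changes the estimate of the spread, the difference from Runx1KO was 0.72 with an adjusted p of 0.0419. On the other Hyou1 probe sets RUNX1(41-214) differed from control by 0.40 and -0.00 and from Runx1KO by -0.05 and 0.08. Runx1KO differed from control by 0.45 and -0.08 on them.

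Sdf2l1, a partner of the DNAJ proteins of the ER, showed a like order without separating. It read 8.56, 8.27 and 9.12 in control, 8.90, 8.42 and 8.49 in Runx1KO, and 8.82, 9.38 and 9.25 in RUNX1(41-214). The fragment group overlapped both other groups, with differences of 0.50 from control (-0.07 to 1.06) and 0.54 from Runx1KO (-0.02 to 1.11).

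The lectin chaperones, which hold glycoproteins until they are folded, did not separate the groups. Calr read 11.41, 11.71 and 11.61 in control, 11.78, 11.71 and 11.38 in Runx1KO, and 11.53, 11.68 and 11.75 with the fragment. Canx read 11.77, 11.66 and 12.14, then 11.83, 11.63 and 11.99, then 11.73, 11.84 and 11.86 in the same order. Their differences from control were 0.05 and 0.08 for Calr and -0.04 and -0.05 for Canx, with no interval reaching beyond 0.36 in size.

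Disulfide isomerases form and shuffle disulfide bonds. By the limma test 0 of the 5 members with this role passed in any comparison, beside 0.347%, 4.28% and 1.36% of all genes. An unadjusted p under 0.05 was reached by 0 of 5, beside 7.22%, 15.5% and 10.6% of all genes. These counts do not set the role apart. P4hb, the founding isomerase, had the smallest spread of the 32 genes, with all 9 arrays between 11.85 and 12.10. Its difference from control was 0.01 in Runx1KO and -0.00 in RUNX1(41-214) (-0.21 to 0.20). Pdia6, which also attenuates IRE1, read 11.50, 11.14 and 11.07 in control, 11.18, 10.99 and 11.03 in Runx1KO, and 10.88, 11.22 and 11.22 with the fragment. These groups overlapped. Pdia4 read 7.68, 7.16 and 7.21 in control, 8.16, 7.54 and 7.32 in Runx1KO, and 7.80, 8.28 and 7.69 in RUNX1(41-214). The fragment arrays of Pdia4 lay just above the control arrays, by 0.57 on average (-0.03 to 1.17, adjusted p = 0.354). Pdia3, the partner of the lectins, differed from control by 0.19 and 0.14, and Creld2 by -0.18 and -0.21.

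**Figure D4:**
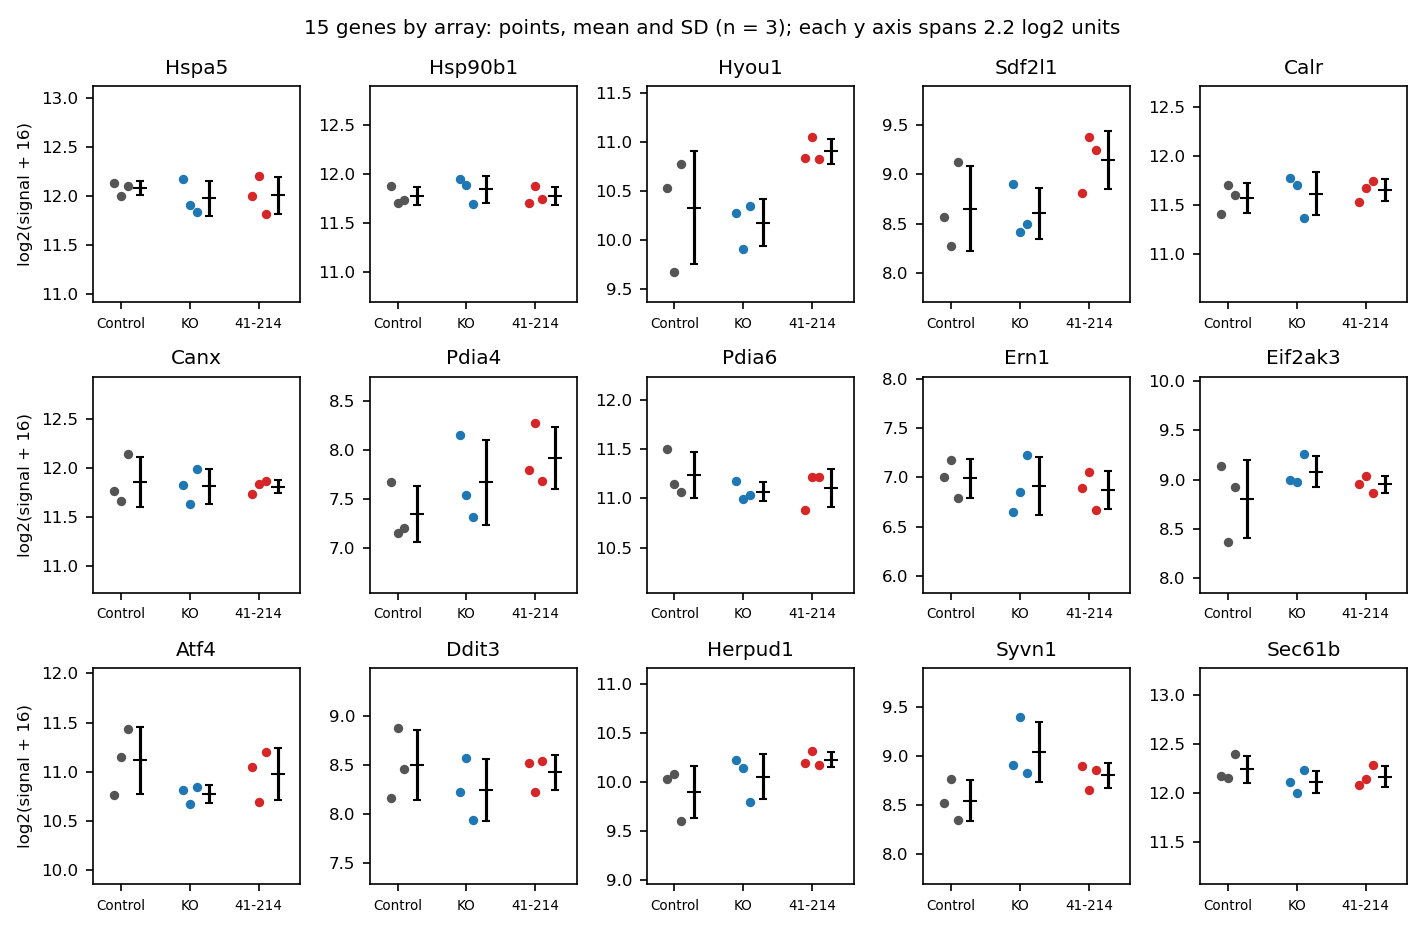
Log2(signal + 16) of 15 described genes on each array (points: grey control, blue Runx1KO, red RUNX1(41-214)), with the group mean and SD (black, n = 3); every y axis spans 2.2 log2 units. Points of Hspa5, Hsp90b1, Calr and Sec61b form level rows, and the red points of Hyou1 lie above the others.

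The mRNAs of the 3 sensors did not differ detectably between the groups. Ern1, the kinase and RNase that splices Xbp1, read 7.01, 7.18 and 6.79 in control, 6.65, 6.85 and 7.23 in Runx1KO, and 6.89, 7.05 and 6.67 with the fragment. Eif2ak3, which encodes PERK, read 9.13, 8.36 and 8.92, then 9.0, 8.97 and 9.26, then 8.96, 9.03 and 8.86. Within each sensor the groups overlapped. Differences from control were -0.08 and -0.12 for Ern1, 0.27 and 0.15 for Eif2ak3, and -0.01 and -0.09 for Atf6, and each of these intervals held 0, that of Eif2ak3 in Runx1KO running from -0.21 to 0.75.

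Xbp1, the target of IRE1 and a factor of secretory cells, was the member with the lowest p in Runx1KO against control, yet it did not pass. It read 10.94, 10.88 and 11.45 in control, 11.63, 11.62 and 11.59 in Runx1KO, and 11.25, 11.43 and 11.11 in RUNX1(41-214). The Runx1KO arrays lay close together and above all others. The difference was 0.52 from control (0.19 to 0.86, unadjusted p = 0.00517, adjusted p = 0.273), and RUNX1(41-214) differed from control by 0.17 and from Runx1KO by -0.35 (adjusted p = 0.438). Of its 4 probe sets 3 gave a higher level in Runx1KO, the largest 0.80 (adjusted p = 0.0927 over all probe sets), and the dimmest gave -0.48. Xbp1 is itself 1 of the 7 measured plasma cell markers, whose summed signals were 5064.1 to 6581.3 in control, 6185.2 to 10407 in Runx1KO and 2607.4 to 4097.4 in RUNX1(41-214), with 4 of the 7 below the median gene. These sums include the signals of Xbp1 itself, 1889.12 to 2646.1 in control, 2939.5 to 3274.42 in Runx1KO and 2168.61 to 2776.25 in RUNX1(41-214). In Runx1KO against control 7 of these 7, Xbp1 among them, lay above 0 and 0 passed by limma. The 1 marker at an unadjusted p under 0.05 was Xbp1 itself. The part of such cells in the Xbp1 values was not tested.

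The PERK branch factors did not separate the groups. Atf4, which is controlled mainly in translation, read 10.76, 11.15 and 11.43 in control, 10.81, 10.67 and 10.85 in Runx1KO, and 11.05, 10.69 and 11.20 with the fragment. Ddit3, which encodes the death-promoting factor CHOP, read 8.16, 8.87 and 8.46, then 8.22, 8.57 and 7.93, then 8.52, 8.22 and 8.53. All groups overlapped for both genes. Atf4 differed from control by -0.34 (-0.74 to 0.06) and -0.14 (-0.53 to 0.26), and Ddit3 by -0.26 (-0.79 to 0.28) and -0.07 (-0.61 to 0.46). The brightest Atf4 probe set is of a type that can also bind related transcripts.

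Asns, which makes asparagine from aspartate and is a target of ATF4, showed the widest difference of the 32 genes. Its deposited signals were 824.56, 1513.84 and 901.00 in control, 1013.01, 493.47 and 442.49 in Runx1KO, and 189.85, 197.65 and 263.36 in RUNX1(41-214). On the log2 scale these were 9.72, 10.57 and 9.85, then 9.96, 8.93 and 8.90, then 7.76, 7.85 and 8.14. All 3 fragment arrays lay below the 6 others, and the Runx1KO arrays were split, with replicate 1 among the controls and the other two below them. Asns fell in RUNX1(41-214) by 2.13 log2 units against control (-2.80 to -1.45, SE 0.31, adjusted p = 0.00212), or 4.37-fold.

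Asns differed by -0.78 between Runx1KO and control (-1.45 to -0.11, adjusted p = 0.554) and by -1.35 between RUNX1(41-214) and Runx1KO (-2.02 to -0.67, adjusted p = 0.0647), and neither passed. Its other probe set, of a type that can also bind related transcripts, gave -2.12 for RUNX1(41-214) against control (adjusted p = 0.0208 over all probe sets). The order of groups was the same. Across 20 alternatives, among them leaving out each array in turn, the difference between RUNX1(41-214) and control stayed between -2.29 and -1.87 with adjusted p from 0.00114 to 0.0134. The difference from Runx1KO passed in 4 of the 20: with array weights (-1.67, adjusted p = 0.00424), without the dimmest 25% of genes (adjusted p = 0.0432), without Control replicate 2 (adjusted p = 0.0362) and without both arrays of high Gapdh ratio (-1.53, adjusted p = 0.0431). The B cell marker sums given above were also lowest on the fragment arrays, with 6 of the 8 measured markers below the median gene, although 4 of the 8 lay above control and 2 fell. The part of other cells in the Asns difference was not tested.

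Trib3, a pseudokinase induced by ATF4 and CHOP that restrains ATF4, was the 1 member past the threshold between RUNX1(41-214) and Runx1KO. It was among 6 members whose arrays did not overlap in this comparison, beside 18.8% of all genes, and Asns differed more (-1.35). Trib3 read 9.01, 9.12 and 9.14 in control, 9.20, 9.73 and 9.48 in Runx1KO, and 8.51, 8.57 and 8.0 in RUNX1(41-214). The groups were ordered without overlap, Runx1KO highest and RUNX1(41-214) lowest. Trib3 was lower in RUNX1(41-214) than in Runx1KO by -1.11 log2 units (-1.58 to -0.64, SE 0.21, adjusted p = 0.026). The differences from control, -0.73 for RUNX1(41-214) (-1.20 to -0.26, adjusted p = 0.0952) and 0.38 for Runx1KO (-0.09 to 0.85, adjusted p = 0.798), did not pass.

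The Trib3 call depended on single arrays. It was lost without Runx1KO replicate 2 (-0.98, adjusted p = 0.117), without Runx1KO replicate 3 (adjusted p = 0.0795), and without RUNX1(41-214) replicate 1, 2 or 3 (adjusted p = 0.0769, 0.0667 and 0.0976). It was also lost without both arrays of high Gapdh ratio (adjusted p = 0.0762) and with only the 2 groups compared in the fit (adjusted p = 0.0529), while the difference stayed between -1.25 and -0.91 in all 20 alternatives. The other Trib3 probe set gave -0.78 (adjusted p = 0.21 over all probe sets) with the same order of group means, and the brightest one is of a type that can also bind related transcripts. Plasma and B cell marker sums were lower in RUNX1(41-214) than in Runx1KO as well, with 6 of 7 plasma cell and 4 of 8 B cell markers below Runx1KO and 1 of each list past the threshold, and their part in the Trib3 difference was not tested.

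The other ATF4 and CHOP outputs did not pass in any comparison. Chac1, which degrades glutathione, was near 6.6 to 6.8 in every group mean and differed from control by -0.21 in Runx1KO and -0.01 in RUNX1(41-214). Ppp1r15a, which encodes GADD34 and restores translation, differed by 0.26 and 0.38, with control arrays spread from 7.61 to 8.73.

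**Figure D5:**
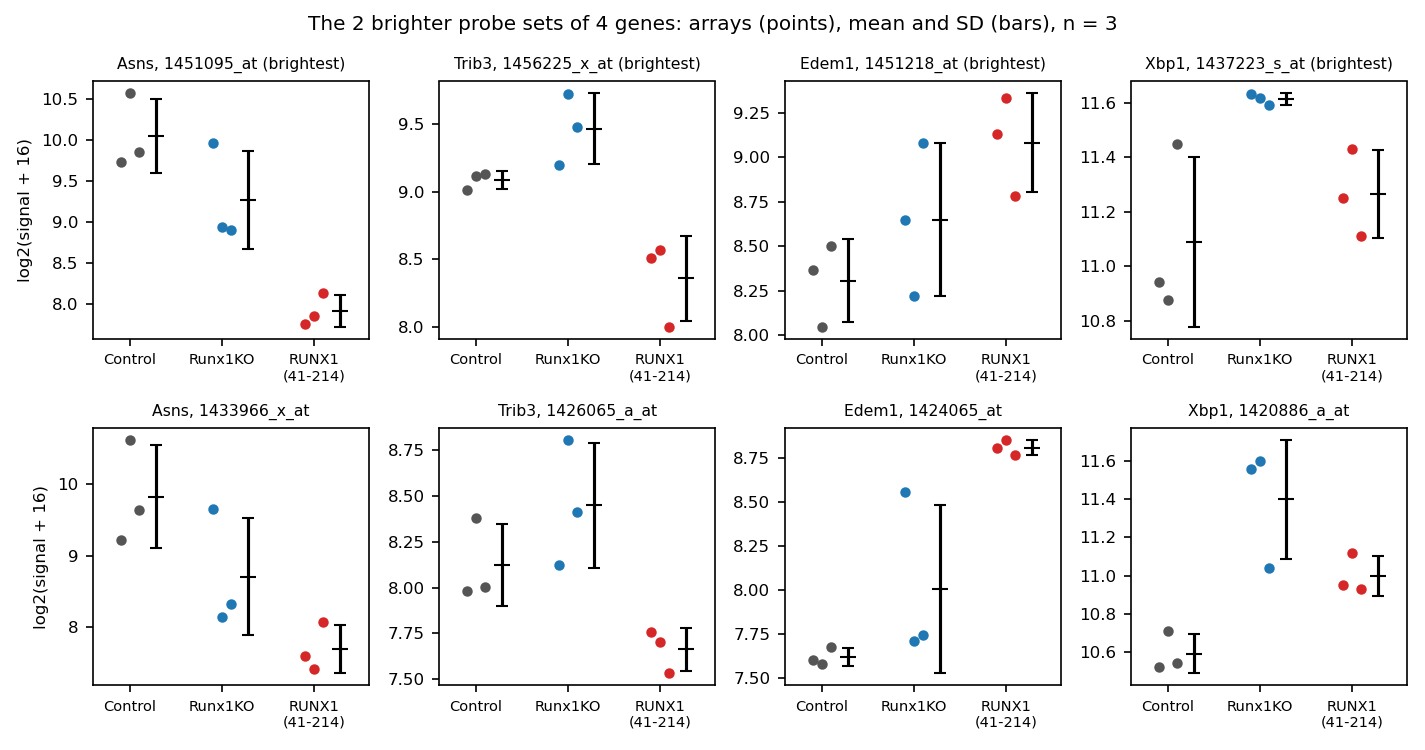
Log2(signal + 16) of the 2 brighter probe sets of Asns, Trib3, Edem1 and Xbp1 on each array (points), with group mean and SD (n = 3); the upper row is the brightest probe set, and the y axes differ. In both rows the RUNX1(41-214) points are lowest for Asns and Trib3 and the Runx1KO points are highest on average for Xbp1, while the Edem1 fragment points are tighter in the lower row.

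ERAD returns misfolded proteins to the cytosol for degradation. Of its 6 members, 0 passed in any comparison by the limma test, beside 0.347%, 4.28% and 1.36% of all genes. For Runx1KO against control, RUNX1(41-214) against control and RUNX1(41-214) against Runx1KO, 1, 1 and 0 had an unadjusted p under 0.05. Of all genes 7.22%, 15.5% and 10.6% did, so these counts do not set the role apart. Edem1, which extracts misfolded glycoproteins and is a target of XBP1, read 8.37, 8.05 and 8.50 in control, 8.65, 8.22 and 9.08 in Runx1KO, and 9.13, 9.33 and 8.78 in RUNX1(41-214). The fragment arrays lay above the control arrays and overlapped the Runx1KO arrays. The difference from control was 0.78 (0.22 to 1.33, adjusted p = 0.138).

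Edem1 crossed the threshold when its probe sets were read differently. The other probe set read 7.60, 7.58 and 7.68 in control, 8.56, 7.71 and 7.75 in Runx1KO, and 8.81, 8.86 and 8.77 in RUNX1(41-214). On it the fragment group was 1.19 above control (adjusted p = 0.0231 over all probe sets), and the mean of both probe sets gave 0.98 (adjusted p = 0.0165). On this probe set the fragment arrays lay above all 6 others, Runx1KO replicate 1 was the nearest to them, and the other two Runx1KO arrays lay near control.

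Herpud1, a scaffold of the ERAD complex with both ERSE-II and the TGATG core in its promoter window, read 10.03, 10.08 and 9.60 in control, 10.22, 10.14 and 9.80 in Runx1KO, and 10.19, 10.32 and 10.17 with the fragment. The fragment arrays lay above control by 0.33 on average (-0.06 to 0.72, adjusted p = 0.433). On the other Herpud1 probe set this difference was 0.19, and the fragment arrays (10.14, 10.44 and 9.74) overlapped the control arrays (10.12, 9.54 and 10.10). Syvn1, the ubiquitin ligase HRD1, read 8.52, 8.77 and 8.35 in control, 8.91, 9.40 and 8.83 in Runx1KO, and 8.90, 8.66 and 8.86 with the fragment. The Runx1KO arrays of Syvn1 lay above the control arrays, by 0.50 on average (0.03 to 0.96, adjusted p = 0.648). Of the partners of HRD1 in retrotranslocation, Sel1l differed from control by 0.08 and -0.13, Derl1 by 0.08 and 0.17, and Derl2 by 0.07 and -0.27. Their other probe sets varied in size and sign. In the same order of groups they gave 0.07 to 0.60 and -0.22 to 0.01 for Sel1l. Those of Derl1 gave 0.04 to 0.36 and 0.35 to 0.58, and that of Derl2 gave 0.20 and 0.25. Sec61b, a subunit of the channel through which proteins enter the ER, read 12.17, 12.15 and 12.40 in control, 12.10, 11.99 and 12.23 in Runx1KO, and 12.08, 12.14 and 12.28 with the fragment, and its groups overlapped.

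Read by promoter element, the 10 members with ERSE or ERSE-II included 0 that passed in any comparison, beside 0.347%, 4.28% and 1.36% of all genes. A count of 0 in 10 does not set them apart from these shares. Their differences between RUNX1(41-214) and control ran from -0.21 to 0.33 with a median of -0.02. Of these 10 genes Syvn1 was the furthest from control in Runx1KO, at 0.50. The 18 members with a promoter window and neither element had a like median of -0.01 between RUNX1(41-214) and control, with 1 past the threshold. The 4 members with the TGATG core ran from -2.13 (Asns) to 0.33 (Herpud1), with 1 past the threshold. Trib3 (adjusted p = 0.0952 by limma), Chac1 and Herpud1, which carry this core too, did not pass against control. The core was chosen with the values of Asns and Trib3 in view, and these counts support nothing about it.

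Wider lists of the same pathways, other than the 32 genes, gave a like picture. In RUNX1(41-214) against control, 0 genes passed among 22 measured of 25 other ER folding enzymes, 20 of 23 other ERAD factors, 20 of 22 translocon and signal peptide genes, 17 of 17 N-glycosylation genes, 18 of 20 other regulators of the response and 16 of 18 genes of ER to Golgi transport. At an unadjusted p under 0.05 by the same limma fit, 4, 3, 2, 0, 1 and 1 of them passed, beside 15.5% of all genes. Their median differences from control were -0.02, -0.06, -0.05, 0.02, -0.04 and 0.02, beside 0.02 over all genes. For Runx1KO against control and for RUNX1(41-214) against Runx1KO, 0 genes of these lists passed as well, and between 0 and 1 gene of each list had an unadjusted p under 0.05.

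Of 37 genes of the ATF4 and amino acid response, 35 were measured besides Asns and Trib3, and in RUNX1(41-214) against control 1 rose and 0 fell, where 1.73% of all genes rose. Without quantile normalization 0 of the list rose and 1 fell. The gene that rose was Slc3a2, the heavy chain shared by several amino acid exchangers, which read 9.98, 10.16 and 9.93 in control, 10.40, 10.47 and 9.97 in Runx1KO, and 10.64, 10.81 and 10.58 in RUNX1(41-214). Its difference of 0.65 (SE 0.16, adjusted p = 0.0487) lay at the threshold and was lost in 9 of 20 alternatives, among them without Control replicate 1 (adjusted p = 0.128) or 3 (0.145), without Runx1KO replicate 1 (0.0729) or 2 (0.0531), and without RUNX1(41-214) replicate 1 (0.154), 2 (0.224) or 3 (0.0876). The list's median was -0.10, with 12 genes above 0 and 23 below, beside 6520 above and 5873 below among all genes, and with median centring of arrays 17 of the 35 lay below. In the other two comparisons 0 genes of the list passed, with 3 and 2 at an unadjusted p under 0.05. The direction of Slc3a2 was opposite to that of Asns on the same arrays.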

How the data were processed

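RNA of KSL cells from 9 samples was purified with Qiagen microcolumns, amplified by Affymetrix two-cycle labelling and marked with biotin, per the labels' protocols. The deposited values are signal intensities per probe set on a linear scale; their summarisation and scaling: not given in the sources used here. After 64 control probe sets were set aside, 22626 remained, of which 20380 carried 1 gene symbol in the platform table, 691 several and 1555 none. Values were converted to log2(signal + 16), quantile normalized, and reduced to the brightest probe set with 1 symbol per gene (12393 genes; 19 of the 32 members had several probe sets, 66 in all). All 32 member identifiers were found in the RefSeq gene table.

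Group means over all 9 arrays were estimated by limma 3.58.1 under R 4.3.3 (lmFit, eBayes with a variance trend; 6 residual and 5.6 prior degrees of freedom). The 3 contrasts were tested two-sided with Benjamini-Hochberg adjustment over all genes. P-values rest on the spread between biological replicates pooled over the 3 groups and moderated by the trend over all genes. They therefore depend also on the group outside a comparison. Quantile normalization sets all arrays to 1 distribution; with median centring instead, the median of all genes shifted by 0.12 in RUNX1(41-214) minus control and 0.11 in RUNX1(41-214) minus Runx1KO. Precision is limited by the number of arrays, with a median standard error of 0.20. These steps were tested on simulated data with 200 of 12393 genes changed. Noise was drawn independently for each gene and array from a normal distribution with the gene's own spread within groups. Deviations shared by genes on a real array were not simulated, so shares on the real arrays may differ. For RUNX1(41-214) against control 11.9%, 59.7% and 87.9% of genes changed by a fold of 1.5, 2 and 4 were recovered, with 5 of 111 calls false. The comparison of RUNX1(41-214) with Runx1KO, which holds the Trib3 call, gave 13.4%, 52.2% and 100%, with 12 of 122 calls false. Runx1KO against control gave 11.9%, 50.7% and 89.4%, with 3 of 104 false.

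The members and lists were chosen with earlier results of these data known. Per-array values are given by rule for members past the threshold, the 2 members of each role with the lowest F test p, and the usual reporters Hspa5, Hsp90b1, Xbp1, Atf4, Ddit3 and Herpud1; from wider lists only genes past the threshold are named. P4hb, Dnajb9 and Ppp1r15a arrays are given as ranges chosen after their values were seen. Replicate numbers were checked and did not pair the samples across all groups, although some Control and Runx1KO arrays of the same number deviated together. Figures were drawn with matplotlib 3.10.9. Alternatives were the scaling, the offset, the dim-gene filter, the probe set rule, the variance trend, array weights, a replicate block, the groups in the fit and leaving out arrays. Marker lists for neutrophil, erythroid, T and NK, and monocyte cells were computed and are given in the closing section.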

Additional observations from a re-analysis of the deposited data

How the results depend on the processing

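Of 57 differences (19 described members in 3 comparisons), 2 passed the threshold and 55 did not. Over 20 alternatives the difference of Asns between RUNX1(41-214) and control passed in 20 and that of Trib3 between RUNX1(41-214) and Runx1KO in 13; 3 of the 55 others passed in at least 1 alternative (Edem1, Hyou1 and Asns), and 26 changed sign in at least 1 alternative without passing. The count of members past the threshold for RUNX1(41-214) against control was 2 when probe sets were averaged per gene and 2 when any probe set of a member counted, an alternative chosen after seeing the data. For RUNX1(41-214) against Runx1KO it was 2 without the dimmest 25% of genes, 2 with array weights, 0 with only the 2 groups compared, and 0 to 3 when 1 array was left out (3 without Control replicate 2). By the F test it was 1 with median centring and 1 to 2 when 1 array was left out (1 without Control replicate 1, Runx1KO replicate 2 or 3, or any RUNX1(41-214) array).

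The background moved more. Genes past the threshold for Runx1KO against control were 65 without the dimmest 25% of genes, 9 with only the 2 groups compared, and 14 to 50 when 1 array was left out: 21 and 20 without Control replicate 1 and 3, 28, 22 and 14 without Runx1KO replicate 1, 2 and 3, and 25 and 27 without RUNX1(41-214) replicate 1 and 2. For RUNX1(41-214) against control they were 765 with array weights, 767 without both arrays of high Gapdh ratio, and 297 to 611 when 1 array was left out (352 without Control replicate 3, 298 and 297 without RUNX1(41-214) replicate 1 and 2), and for RUNX1(41-214) against Runx1KO they were 371 with array weights and 74 to 207 when 1 array was left out (92 without Runx1KO replicate 2, and 91, 74 and 106 without RUNX1(41-214) replicate 1, 2 and 3). With median centring the split for RUNX1(41-214) against control was 304 higher and 280 lower, against 214 and 317. The replicate block gave 47, 535 and 171 genes and 0, 1 and 1 members. Same-numbered arrays deviated together in 3 of 9 pairs (-0.17 to 0.42), and arrays of other numbers in 5 of 18 (-0.47 to 0.26). The highest values were those of Control with Runx1KO for replicate 3 (0.42) and replicate 2 (0.41). Since 0 of 9 arrays correlated best with its own number in both other groups, the numbers were not taken as pairs across the 3 groups. The block changed no member call. No detection call was used here, so dim genes were not separated from background.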

Other observations

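With quantile normalization, chaperones outside the ER tended to lower signals in RUNX1(41-214), a direction that for the cytosolic ones depended on the scaling. Of 21 cytosolic chaperones 19 were measured, and against control 2 fell and 0 rose, beside 2.56% of all genes that fell. Dnajb1, a co-chaperone of HSP70, read 12.0, 11.55 and 12.01 in control, 11.69, 11.49 and 11.55 in Runx1KO, and 11.16, 11.21 and 11.04 in RUNX1(41-214), a difference of -0.72 (SE 0.13, adjusted p = 0.0102) that passed in 19 of 20 alternatives and not with the mean of its probe sets (-0.48, adjusted p = 0.175). Hsph1, an exchange factor of HSP70, differed by -0.86 (adjusted p = 0.0433) and passed in 9 of 20. Of the 19 genes 18 lay below 0 with quantile normalization, 16 without it and 11 with median centring of arrays. Of all 12393 genes 5873 lay below 0 with quantile normalization.

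All 8 mitochondrial chaperones were measured, and 8 of 8 lay below control in both groups, with medians of -0.28 in Runx1KO and -0.38 in RUNX1(41-214). Of all 12393 genes 6290 and 5873 lay below control. With median centring 8 and 7 of the 8 chaperones lay below. In RUNX1(41-214) Hspd1, the HSP60 folding chamber, fell by 0.39 (adjusted p = 0.0281, passed in 13 of 20 alternatives) and Lonp1, a matrix protease and chaperone, fell by 0.70 (adjusted p = 0.0464, passed in 8 of 20). Beside these 2 calls, 2.56% of all genes fell. Both calls were lost with median centring, where the differences were -0.20 and -0.58. For Runx1KO against control 0 of 8 passed by limma, with 3 at an unadjusted p under 0.05, beside 7.22% of all genes. Both comparisons use the same control arrays.

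Summed deposited signals of other marker lists were, in control, Runx1KO and RUNX1(41-214), 4197.8 to 4687.9, 7109.8 to 7951.7 and 8741.9 to 10106.8 for mast cells and basophils (8 measured), 8194 to 13671.9, 8579.9 to 14142.8 and 11544.2 to 14379.4 for neutrophil precursors (9 measured), and 302.7 to 2196.1, 288.2 to 869 and 630.9 to 1558.5 for erythroid cells (5 measured). They were 1200.3 to 1530.5, 531.2 to 1169.9 and 317.8 to 454.9 for T and NK cells (8 measured) and 2912.7 to 5115.8, 3267.7 to 4280 and 2842.7 to 3935.8 for monocytes and macrophages (8 measured). Markers below the median gene numbered 6, 6, 4, 7 and 5 in the order of these lists. In RUNX1(41-214) against control, 3 mast cell and 2 erythroid markers rose by limma, while 3 and 2 of those lists lay below 0. In the same comparison 3 T and NK markers and 1 monocyte marker fell, with 2 and 6 of those lists above 0, and 0 neutrophil markers passed. Of all genes 1.73% rose and 2.56% fell. Of the 7 measured plasma cell markers 1 fell in RUNX1(41-214) against control, 6 did not pass and 2 lay above 0, with a median of -0.46. The gene that fell, Jchain, differed by -2.82 between RUNX1(41-214) and control (adjusted p = 0.00953), past the threshold in 20 of 20 alternatives.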
